A study of Mus musculus with 12 samples.

Results

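In a mouse model of skin squamous carcinoma, 1235 of the 164303 chromatin regions that could qualify (0.752%) were open in the Epcam-negative tumour cells and at least 4-fold lower in every other library. ATAC-seq cuts and tags accessible DNA with a transposase (Tn5), so that reads pile up where chromatin is open. A library's counts at a peak were divided by its total over all 177240 peaks and scaled to CPM, counts per 1000000. A peak was taken where log2(CPM + 0.5) of the paired-end run in Lgr5 Epcam- exceeded the highest of the other 5 libraries by at least 2. Peaks on chromosomes 1 to 19 other than chromosome 9 were eligible, and 50 peaks whose paired-end total was more than 3 times their single-end total were left out. The 1235 peaks, called members from here on, were chosen by these paired-end values, so the levels of Lgr5 Epcam- against the others are a description and carry no test.

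There were 6 libraries in 5 groups, each read in both single-end and paired-end mode. Lgr5 Epcam- (1 library) and Lgr5 Epcam+ (2 libraries) were sorted from tumours of mice with Lgr5CreER, p53fl/fl and Rosa-YFP+/+ among their alleles, in which the promoter of a hair follicle stem cell receptor drives a Cre recombinase that deletes p53 and switches on a YFP reporter. K14 Epcam+ (1 library) came from tumours of mice with K14CreER and the same other alleles, where the promoter of a basal keratin drives the Cre, so each tumour model starts only in the cells that use its promoter. Hair follicle (HF) and interfollicular epidermis (IFE), 1 library each, came from WT mice, and all mice were female and of mixed strain, with no age in the labels. The labels name antibodies against CD45, CD31, CD140a and Epcam for the sort but do not say that YFP was used, and nothing says whether a library is 1 animal or that the Lgr5 Epcam+ libraries came from separate animals. Epcam-negative cells were profiled for the Lgr5 model only, in 1 library, so a property of Epcam-negative cells and a property of this library cannot be told apart. In sorted populations, more cells with an open site and a more open site per cell cannot be told apart either.

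Epcam is a surface adhesion protein of epithelial cells, and its loss accompanies the epithelial to mesenchymal transition (EMT), in which carcinoma cells give up cell junctions and keratins and take up matrix genes, vimentin and motility. The transition is driven by transcription factors of the Zeb, Snail and Twist families and by TGF-beta signalling. Distal enhancers, more than promoters, tend to be particular to a cell state, and factors such as AP-1, TEAD and RUNX bind many of them.

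Some members lay over start sites of genes, and these give the sequences that can be shown, from RefSeq on the GRCm38.p6 build (the coordinates of mm10). A table of promoter windows, each 250 bases before to 50 after a start site, placed 32 start sites, 17 of protein-coding and 15 of lncRNA genes, inside 31 members (2.51%, against 7.51% of all eligible peaks). The 250 bases before the start site are printed for 5 of these genes, chosen for matrix or Hippo pathway roles, and in the case of Jph2 for its number of members and of Dclk1 for its level. Jph2 encodes a junctophilin of muscle membranes, Ankrd1 a nuclear protein induced through the Hippo pathway, Pcolce an enhancer of procollagen cleavage, Col11a1 a fibrillar collagen chain and Dclk1 a kinase that binds microtubules. Capitals mark every match to a list of 12 short motifs on either strand.
Jph2, chr2:163397974-163398223 (minus strand): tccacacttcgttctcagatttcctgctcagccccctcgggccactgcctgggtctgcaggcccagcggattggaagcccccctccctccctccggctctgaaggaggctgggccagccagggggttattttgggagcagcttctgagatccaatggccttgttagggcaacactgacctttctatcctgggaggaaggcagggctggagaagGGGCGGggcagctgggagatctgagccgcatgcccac
Ankrd1, chr19:36119845-36120094 (minus strand): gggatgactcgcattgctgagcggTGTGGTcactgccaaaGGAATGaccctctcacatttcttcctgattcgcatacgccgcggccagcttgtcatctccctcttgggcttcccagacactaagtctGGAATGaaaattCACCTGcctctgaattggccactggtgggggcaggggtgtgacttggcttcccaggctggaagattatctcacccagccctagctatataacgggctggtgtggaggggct
Pcolce, chr5:137611405-137611654 (minus strand): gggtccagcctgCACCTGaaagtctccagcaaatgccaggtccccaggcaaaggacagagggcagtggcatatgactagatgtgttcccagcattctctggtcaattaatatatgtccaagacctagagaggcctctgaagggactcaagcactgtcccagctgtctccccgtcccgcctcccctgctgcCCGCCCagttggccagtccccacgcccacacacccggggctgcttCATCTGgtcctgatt
Col11a1, chr3:114030290-114030539 (plus strand): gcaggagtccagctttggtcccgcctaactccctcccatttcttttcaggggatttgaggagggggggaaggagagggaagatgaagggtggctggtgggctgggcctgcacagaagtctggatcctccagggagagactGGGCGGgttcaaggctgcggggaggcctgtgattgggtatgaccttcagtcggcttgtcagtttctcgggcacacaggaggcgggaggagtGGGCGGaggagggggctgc
Dclk1, chr3:55242114-55242363 (plus strand): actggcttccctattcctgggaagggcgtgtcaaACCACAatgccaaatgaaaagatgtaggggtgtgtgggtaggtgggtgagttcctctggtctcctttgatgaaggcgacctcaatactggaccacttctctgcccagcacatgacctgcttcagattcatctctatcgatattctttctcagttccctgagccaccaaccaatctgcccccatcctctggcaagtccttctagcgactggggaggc

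In the Ankrd1 sequence the capitals mark, in order, a RUNX motif (TGTGGT) starting 226 bases before the start site, TEAD motifs (GGAATG) at 210 and 123 bases, and the E-box of Zeb and Snail factors (CAGGTG) at 111 bases. The Pcolce sequence holds that E-box at 238 bases, a KLF motif (GGGCGG) at 60 bases and the E-box of Twist (CATCTG) at 15 bases. Dclk1 has a RUNX motif at 216 bases, Jph2 a KLF motif at 37 bases, and Col11a1 KLF motifs at 110 and 19 bases. Over the whole windows, RUNX was found in 8 of 32 (25%), against 13.4% of the 14692 windows whose start site lay in any eligible peak and 16.8% of all 31232 windows. The E-box of Twist was in 10 (31.3%, against 12.9% and 17.1%) and KLF in 11 (34.4%, against 57.4% and 35.6%), so the lower share of KLF was seen against eligible peaks and not against all windows. The E-box of Zeb and Snail was in 4 (12.5%, against 19.6% and 20.3%), TEAD in 3 (9.38%, against 13.2% and 14.7%) and AP-1 (TGANTCA) in 2 (6.25%, against 7.48% and 7.88%). The E-box of Zeb and Snail and the AP-1 motif can overlap. ETS (ACCGGAAG), GRHL (AACCNGTT), FOX (TGTTTAC), SRF, NFI and CTCF were in 0 of 32, and in 3.73%, 1.95%, 2.63%, 0.0272%, 0.0340% and 0.238% of the windows in eligible peaks. The windows differed in base composition, which moves with these shares: a ratio of observed to expected CpG under 0.6 was found in 29 of 32 (90.6%), against 38.1% in eligible peaks and 64.3% of all windows, and median GC was 52.2%, against 59.7% and 52.7%. Its part in the motif shares was not tested. The member over the start of Dclk1 had 35.1 CPM in Lgr5 Epcam-, against 3.42 and 6.05 in Lgr5 Epcam+, 5.83 in K14 Epcam+, 3.15 in HF and 1.86 in IFE. Over the start of Pcolce it was 19.8 CPM in Lgr5 Epcam-, against 2.20 and 3.195 in Lgr5 Epcam+, 3.09 in K14 Epcam+, 2.96 in HF and 1.57 in IFE. Col11a1 was the lowest of the 5 in Lgr5 Epcam-, at 12.5 CPM, against 0.398 and 1.04 in Lgr5 Epcam+, 1.84 in K14 Epcam+, 2.29 in HF and 1.80 in IFE.

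A microRNA gene stood beside a pair of members. The hairpin of Mir199b (chr2:32318460-32318569, plus strand), a microRNA known from mesenchymal tissues, lay 217 bases from one member and 851 bases from another. The first had 23.3 CPM in Lgr5 Epcam-, against 2.42 and 2.38 in Lgr5 Epcam+, 4.03 in K14 Epcam+, 0.988 in HF and 0.870 in IFE. The other had 10.5 CPM in Lgr5 Epcam-, and 0.520 and 0.648, 0.647, 0.926 and 0.638 CPM in those same libraries. Both members thus held their highest value in Lgr5 Epcam- by the rule, and the first was higher in every Epcam+ tumour library than in either normal epithelium. The mature sequence annotated there, with its seed (bases 2 to 8) in capitals, and that of the neighbouring hairpin Gm23363 are shown, as the products of the hairpins between these members, and they share no seed.
mmu-miR-199b-3p: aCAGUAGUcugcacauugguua
mmu-miR-3154: cAGAAGGGgagucgggagcgga
Within 10 kb of an annotated hairpin lay 8 of 1235 members (0.648%), against 1.40% of eligible peaks, so members were not near microRNA genes more often than other peaks.

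Every member lay above the median eligible peak in Lgr5 Epcam-. In the paired-end run their median was 11.1 CPM in Lgr5 Epcam- (range 4.30 to 43.4, or 89 to 898 counts), against 0.887 and 1.25 CPM in Lgr5 Epcam+, 1.39 in K14 Epcam+, 1.42 in HF and 1.10 in IFE. Median CPM over all eligible peaks was 2.71 in Lgr5 Epcam- and 2.14 to 2.69 in the other libraries. The density of counts outside peaks gives a background expected inside a peak of the same width, for an assumed genome of 2700 Mb. Against it the members' median ratio was 16.1 in Lgr5 Epcam-, 2.23 and 2.62 in Lgr5 Epcam+, 2.12 in K14 Epcam+, 1.34 in HF and 1.37 in IFE. More than 2 times background was reached by all members in Lgr5 Epcam-, by 57.2% and 67.3% in Lgr5 Epcam+, by 57.1% in K14 Epcam+, and by 10.1% in HF and 14.6% in IFE. The Epcam+ tumours thus sat above their own background at more members than the normal epithelia did, while on the CPM scale HF was as high as K14 Epcam+. Counts in peaks were 15896612 to 32703016 per run, and the part of the counts inside peaks was lowest in HF, at 21.3% single-end and 27.5% paired-end, and highest in Lgr5 Epcam+ 1, at 43.7% and 51.1%. The ratio depends on that share and on the assumed genome size, and its part in the difference between tumour and normal libraries was not tested.

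**Figure D1:**
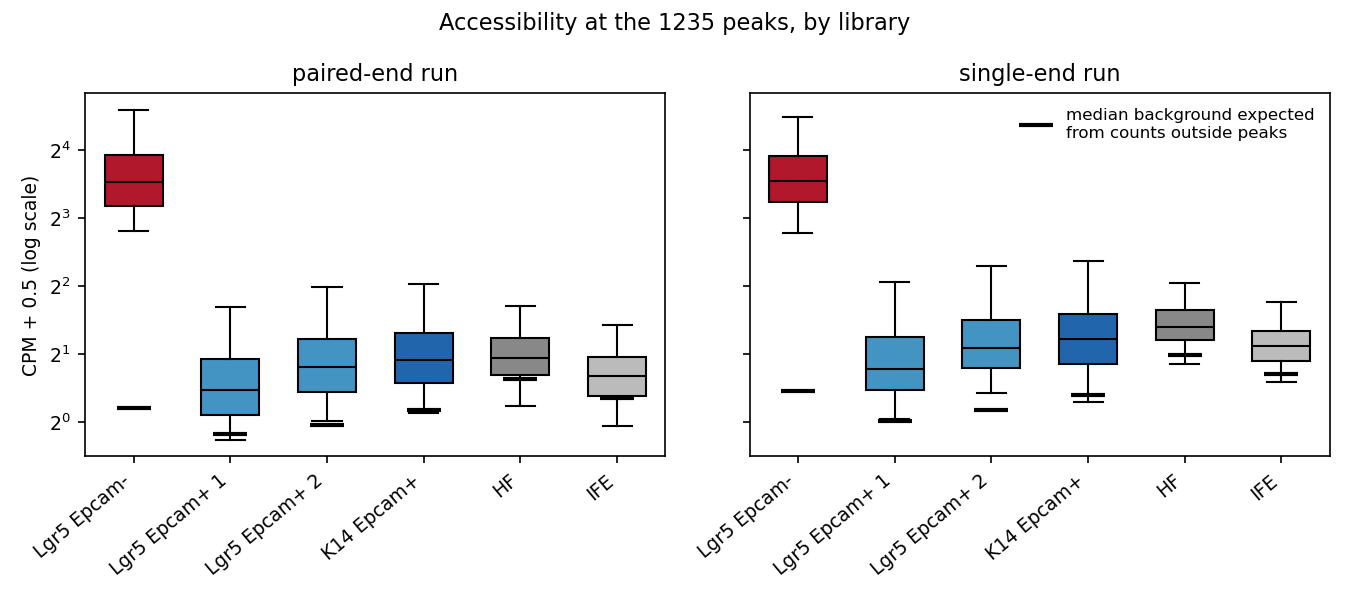
Box plots of CPM + 0.5 on a log scale at the 1235 members, for the paired-end run (left) and the single-end run (right) of each library; boxes span the quartiles, whiskers the 5th to 95th percentiles, and black bars the median background expected from counts outside peaks. Lgr5 Epcam- had a median of 11.1 CPM paired-end and 11.2 CPM single-end, while every other library's median lay between 0.887 and 2.14 CPM.

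The highest of the other 5 libraries was HF at 413 members (33.4%), K14 Epcam+ at 369 (29.9%), Lgr5 Epcam+ 2 at 260 (21.1%), IFE at 135 (10.9%) and Lgr5 Epcam+ 1 at 58 (4.70%). Over all eligible peaks, by the same measure, HF was the highest of the 5 at 25.6%, IFE at 24.1%, K14 Epcam+ at 20.7%, Lgr5 Epcam+ 2 at 15.8% and Lgr5 Epcam+ 1 at 13.8%. The same rule with another library in the place of Lgr5 Epcam- kept 5 peaks for Lgr5 Epcam+ 1 (0.00304%), 127 for Lgr5 Epcam+ 2 (0.0773%), 25 for K14 Epcam+ (0.0152%), 1598 for HF (0.973%) and 488 for IFE (0.297%). Lgr5 Epcam- therefore had fewer peaks of its own than HF and more than IFE. How alike the 6 libraries are, and its part in these counts, was not tested.

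The single-end run, which the rule read only for the total that removes pile-up, gave a smaller difference at most members. The median difference was 1.92 single-end, against 2.25 paired-end. Of the 1235 members, 499 (40.4%) also reached 2 in the single-end run, where 579 eligible peaks did (0.352%). At least 1 was reached by 1232 (background 4.82%), and all 1235 were above 0 (background 23.5%), the lowest at 0.892. The corresponding share that reached 2 again was 45.6% for the peaks the rule gave HF (HF-only), 4.10% for those it gave IFE (IFE-only) and 42.5% for those it gave Lgr5 Epcam+ 2. The runs were taken as 2 readings of 1 library, which the labels do not say outright. They are therefore read as technical repeatability and not as biological replication. The single-end run of K14 Epcam+ was lower from chromosome 15 on: its median log2 level at members, minus the paired-end one, was -0.30 on chromosomes 15 to 19 and 0.41 on chromosomes 1 to 14, against 0.45 and 0.47 in HF. The share reaching 2 was 132 of 272 (48.5%) on chromosomes 15 to 19 and 367 of 963 (38.1%) on chromosomes 1 to 14, and it was 590 of 1235 (47.8%) with K14 Epcam+ left out of the single-end maximum.

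**Figure D2:**
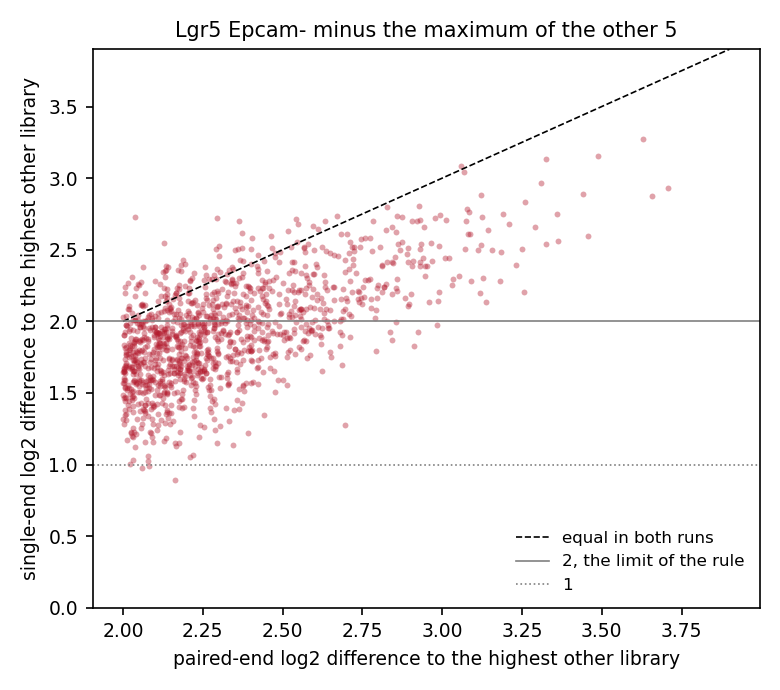
Log2 difference between Lgr5 Epcam- and the highest other library at each of the 1235 members, paired-end on the horizontal axis and single-end on the vertical axis; the dashed line marks equality and the horizontal lines mark 2 and 1. Most points lie under the dashed line, 499 lie at or above 2 and 1232 at or above 1 in the single-end run.

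The limit cut through a continuous range. The paired-end difference ran from just over 2 to 3.71, 44 members reached 3, 266 lay between 2 and 2.1, and 373 peaks lay just outside, between 1.9 and 2. The nearest inside were peaks near Sipa1l1, near Rxra, in Gas7 and in Shroom3, all within 0.01 of the limit. The nearest outside were in Col15a1, Ahcyl1 and Grm7 and at 69269 bases from Lef1, equally near. The Shroom3 peak had 7.88 CPM in Lgr5 Epcam- and at most 1.59 CPM elsewhere, and the Col15a1 peak 13.1 CPM in Lgr5 Epcam- and at most 2.90 CPM elsewhere.

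The members were spread over all 18 chromosomes of the rule, from 0.475% of the eligible peaks of chromosome 7 to 1.14% on chromosome 17 and 1.21% on chromosome 3. The median log2 difference between Lgr5 Epcam- and the median of the other 5 libraries, over all eligible peaks of a chromosome, was -0.07 on chromosome 7, 0.05 on chromosome 17, 0.12 on chromosome 3 and 0.15 on chromosome 19, where only 0.5998% of peaks were members. Its part in the shares was not tested. On chromosome 9, outside the rule, 366 of 9262 peaks (3.95%) passed the same difference, and on X 17 of 3562 (0.477%).

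The member with the largest difference lay in Epb41l3, which encodes a protein that ties membrane proteins to the cytoskeleton. It had 27.3 CPM in Lgr5 Epcam- (exact binomial 95% interval 25.05 to 29.6), against 1.19 and 1.21 CPM in Lgr5 Epcam+, 0.996 in K14 Epcam+, 1.48 in HF and 1.62 in IFE. The other 5 libraries lay close together there, and the difference was 3.71 paired-end and 2.93 single-end. A member in Met, the receptor of hepatocyte growth factor, had 19.4 CPM in Lgr5 Epcam-, 1.28 and 1.04 in Lgr5 Epcam+, 1.19 in K14 Epcam+, 1.48 in HF and 1.10 in IFE, a difference of 3.33. The peak at the start of Met went the other way, with 21.5 CPM in Lgr5 Epcam-, 40.3 and 29.2 in Lgr5 Epcam+, 27.8 in K14 Epcam+, 14.5 in HF and 13.8 in IFE, so the member is a site inside a gene whose start was open in all 6 libraries. The peak with the highest level was at the end of Susd1, with 43.4 CPM in Lgr5 Epcam-, 2.51 and 3.93 in Lgr5 Epcam+, 3.49 in K14 Epcam+, 1.91 in HF and 0.986 in IFE.

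Epb41l3, Met and Susd1 were among the 15 largest differences, 1 per gene, of the members with a protein-coding gene within 50 kb, and the other 12 lay in or near Mindy4 (3.63), Gpr176 (3.49), Dscam (3.36), Glis3 (3.26), Galnt17 (3.26), Hrh2 (3.25), Farp1 (3.23), Arnt2 (3.21), Adamts9 (3.19), Abcc1 (3.16), Kctd10 (3.14) and Cit (3.14). Of these genes, Glis3 and Arnt2 encode transcription factors, Dscam an adhesion molecule, Adamts9 a secreted metalloprotease, Hrh2 a histamine receptor and Cit a kinase of cell division. Their levels were 11.5 to 30.1 CPM in Lgr5 Epcam- and 0.520 to 2.97 CPM in the other libraries. Single-end differences of the 12 were 2.13 to 3.28. Members over 50 kb from any coding gene reached similar differences, the 6 largest at 3.19 to 3.66, with 31.5 CPM in Lgr5 Epcam- and 0.986 to 2.04 CPM elsewhere for a peak 173716 bases from Fbxl17 (difference 3.66). A peak 120840 bases from Foxf1, a forkhead factor gene of mesenchyme, had 17.5 CPM in Lgr5 Epcam-, 0.826 and 1.08 in Lgr5 Epcam+, 0.896 in K14 Epcam+, 1.48 in HF and 0.870 in IFE.

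**Figure D3:**
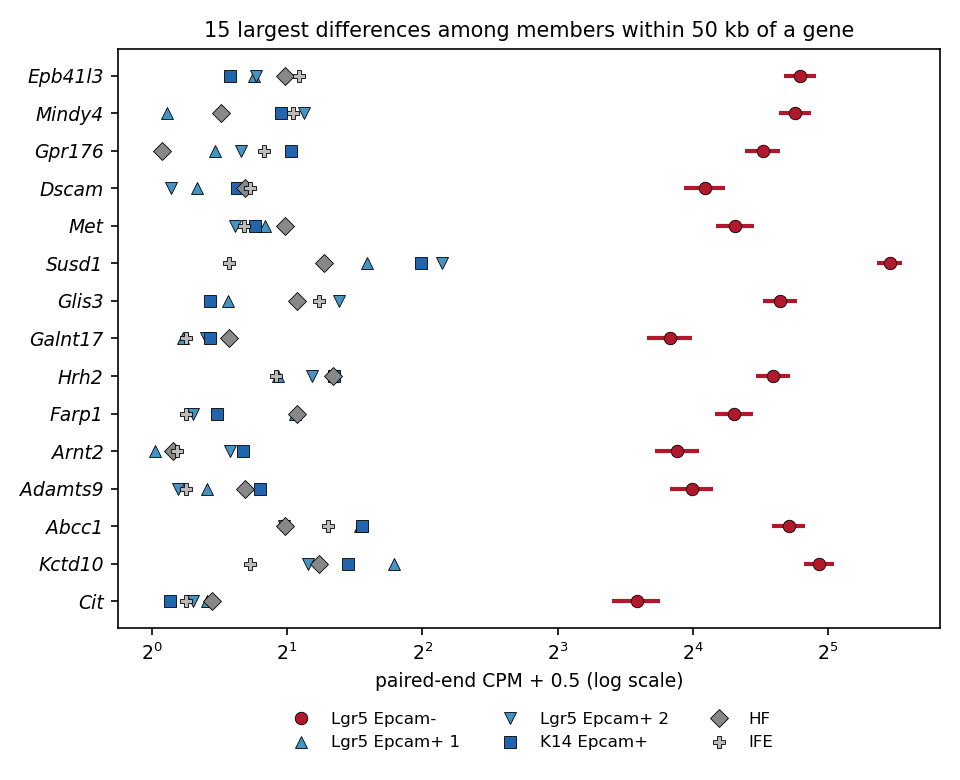
Paired-end CPM + 0.5 on a log scale for the 15 members with the largest difference among those within 50 kb of a protein-coding gene, 1 per gene, labelled by that gene. Each symbol is 1 library and red bars are exact binomial 95% intervals of Lgr5 Epcam-, which cover counting error only. Lgr5 Epcam- stands at 11.5 to 43.4 CPM, and the other 5 libraries lie at or under 3.93 CPM.

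Members lay away from the ends of genes. Within 1 kb of either end of a protein-coding gene were 54 members (4.37%), against 11.6% of eligible peaks, and inside a gene 608 (49.2%, against 45.7%). Outside genes but within 50 kb were 236 (19.1%, against 25.4%), and 337 (27.3%, against 17.3%) were farther away. The peaks that the same rule gave HF had 2.25% at gene ends and 34.0% over 50 kb away, and those of IFE 4.51% and 23.4%. The distal position was therefore shared with other sets of peaks open in 1 library and is not particular to Lgr5 Epcam-. The median distance to the nearest annotated start site was 75.7 kb for members, 95.7 kb for HF-only peaks and 38.7 kb for eligible peaks, from a table that held start sites for 79.9% of protein-coding genes and none on chromosome 18. A width of exactly 1001 bases was found in 834 members (67.5%), in 58.8% of HF-only, 1.43% of IFE-only and 29.0% of eligible peaks. How the authors set peak widths is not given in the sources used here, and its part in the other measures was not tested.

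**Figure D4:**
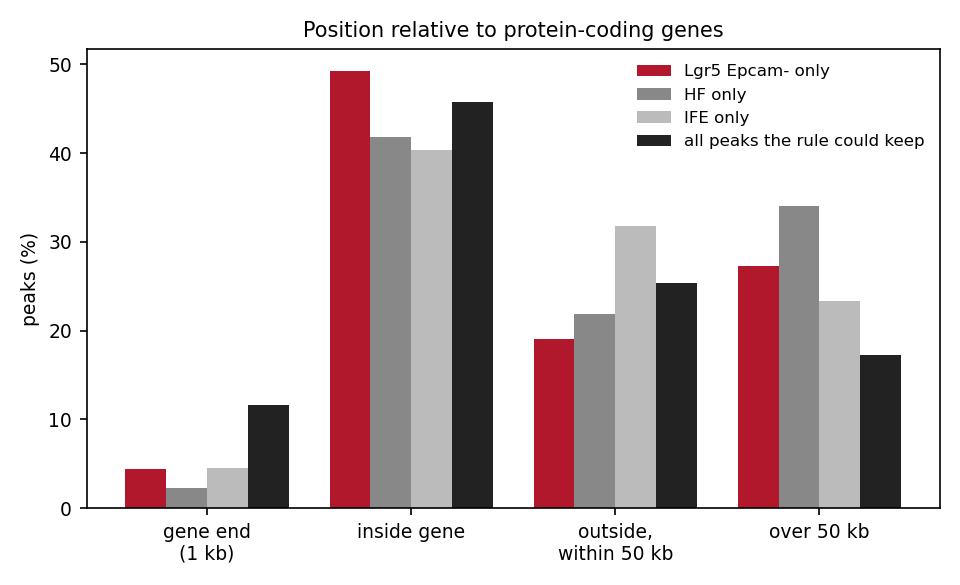
Share of peaks (%) at a gene end (within 1 kb), inside a gene, outside but within 50 kb, and over 50 kb from protein-coding genes, for the 1235 members, 1598 HF-only peaks, 488 IFE-only peaks and all 164303 eligible peaks. Members stand at 4.37% at gene ends and 27.3% over 50 kb away, against 11.6% and 17.3% of eligible peaks.

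Some members lay close to one another. Within 50 kb of another member were 315 (25.5%), in 133 runs, of which 31 held 3 or more. The share was 34.98% for HF-only and 15.2% for IFE-only peaks, sets of other sizes. No share was measured for sets of equal size, so whether members lay closer together than other peaks was not tested. The longest run by number was at Jph2, 7 members in 54.3 kb on chromosome 2, with 100.8 CPM summed in Lgr5 Epcam-, against 9.20 and 8.68 in Lgr5 Epcam+, 12.6 in K14 Epcam+, 10.5 in HF and 9.16 in IFE. It included the start of the gene, with 25.4 CPM in Lgr5 Epcam-, 2.87 and 2.33 in Lgr5 Epcam+, 2.14 in K14 Epcam+, 2.22 in HF and 1.45 in IFE. By the rule, these 7 of the 16 eligible peaks of Jph2 were at least 4-fold lower in each of the other 5 libraries. A run of 6 spanned 89.0 kb at Col1a2, and a run of 6 spanned 106.0 kb at Gask1b. Within 50 kb of the gene lay 4 of the run at Col1a2 and 5 of the run at Gask1b.

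A protein-coding gene within 50 kb was found for 898 members (72.7%), and 693 of the 16513 genes with an eligible peak (4.197%) had at least 1. Of these, 555 had 1 member, 96 had 2 and 42 had 3 or more, 17 of them 4 or more. After Jph2 (7) came Epb41l3 (6), Adamts2, Gask1b and Ppp1r9a (5 each), and, by summed level among those with 4, Adam19, Col5a1, Smg6, Col1a2, Slc4a4, Cpq, Rftn1, Dkk2, Atxn1 and Dst. Adamts2 encodes the protease that trims procollagens, Adam19 a membrane protease, Col5a1 and Col1a2 fibrillar collagen chains, Dkk2 a secreted Wnt modulator, Slc4a4 a bicarbonate transporter and Ppp1r9a a protein that binds actin. The 6 members of Epb41l3 summed to 96.9 CPM in Lgr5 Epcam-, against 6.85 and 6.82 in Lgr5 Epcam+, 8.96 in K14 Epcam+, 10.9 in HF and 8.87 in IFE. The 5 of Adamts2 summed to 85.7 CPM in Lgr5 Epcam-, against 8.53 and 12.005, 13.8, 7.84 and 7.42 in those same libraries. Long genes with many peaks have more chances to hold a member: Atxn1 had 91 eligible peaks and Dst 68, against 14 at Col1a2 and 16 at Jph2.

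Most other peaks of the genes with a member were lower in Lgr5 Epcam- than in the highest other library, though a smaller share than of all eligible peaks. These 14135 peaks had a median difference of -0.34, against -0.71 over all eligible peaks. Above 0 were 39.1%, against 24.4%, and at 1 or more 12.2%, against 6.15%. The genes were picked through a member in the same library, so these values are a description. Of the 693 genes, 433 had a peak over an annotated start site, and 13 of those peaks were themselves members. The start-site peaks had a median difference of -0.03, against -0.34 over the 10239 genes with such a peak, and 67 (15.5%) were at 1 or more, against 1.93%. Without the peaks that are members, which the rule places at 2 or more, the median was -0.07 over 420 peaks, against -0.34 over 10226, and 54 (12.9%) were at 1 or more, against 1.81%. At Col1a2 the start held 21.8 CPM in Lgr5 Epcam-, 1.13 and 1.21 in Lgr5 Epcam+, 1.19 in K14 Epcam+, 10.1 in HF and 1.91 in IFE, so HF was the nearest of the other libraries. At Vim it held 47.0 CPM in Lgr5 Epcam-, 30.4 and 30.5 in Lgr5 Epcam+, 26.3 in K14 Epcam+, 7.47 in HF and 5.57 in IFE. The start of Vim was thus open in every tumour library, at levels above both normal epithelia. A start site inside Dst, which also encodes the epidermal plakin of hemidesmosomes, went the other way, with 9.47 CPM in Lgr5 Epcam-, 35.8 and 30.6 in Lgr5 Epcam+, 20.3 in K14 Epcam+, 46.9 in HF and 50.3 in IFE, although 4 members lay inside the gene. Gask1b, with 5 members, had a start-site peak at 15.5 CPM in Lgr5 Epcam- and 11.2 to 16.9 CPM elsewhere.

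Genes of mesenchymal matrix and adhesion held more members than any other pathway list examined. Of 21 such genes with an eligible peak, 9 (42.9%) had a member, against 4.197% of all genes, and 21 of their 358 peaks (5.87%) were members, against 0.752%. With genes taken within 10 kb only, 4 of 21 (19.05%) had a member, against 3.62% of all genes. At 50 kb they were the fibrillar collagens Col1a1, Col1a2, Col3a1 and Col5a1, Col6a2 of collagen VI, the matrix proteins Postn and Thbs2, the mesenchymal cadherin Cdh11 and the intermediate filament Vim. The member at the end of Vim had 38.5 CPM in Lgr5 Epcam-, against 5.08 and 4.28 in Lgr5 Epcam+, 4.48 in K14 Epcam+, 1.48 in HF and 1.04 in IFE. That site had an order of 3 levels, with the Epcam+ tumours between Lgr5 Epcam- and the normal epithelia. The member inside Vim did not, at 15.8 CPM in Lgr5 Epcam-, 1.16 and 1.34 in Lgr5 Epcam+, 1.59 in K14 Epcam+, 1.98 in HF and 1.51 in IFE. A member 1985 bases from Col1a1 had 22.4 CPM in Lgr5 Epcam-, 1.71 and 2.42 in Lgr5 Epcam+, 2.74 in K14 Epcam+, 1.85 in HF and 0.928 in IFE. At Col1a2, the member 16486 bases away had 18.9 CPM in Lgr5 Epcam-, 0.887 and 1.9 in Lgr5 Epcam+, 1.34 in K14 Epcam+, 4.2 in HF and 1.45 in IFE, with HF the highest of the other libraries. Single-end differences of the 21 members were 1.07 to 2.70, the lowest at Postn.

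Of the genes of growth factor receptors and ligands of mesenchyme, 7 of 18 (38.9%) had a member, the next share of genes among the pathways, and 8 of their 403 peaks (1.99%) were members. These were Met, the PDGF receptor gene Pdgfrb (2 members) and ligand gene Pdgfc, Fgf2, the co-receptors Nrp1 and Nrp2, and the lymphatic growth factor gene Vegfc. Nrp2 had 12.8 CPM in Lgr5 Epcam-, 1.62 and 0.648 in Lgr5 Epcam+, 1.24 in K14 Epcam+, 1.42 in HF and 0.580 in IFE. Of 15 TGF-beta pathway genes, 4 (26.7%) had a member, among them the co-receptor gene Tgfbr3 and the latent TGF-beta binding protein genes Ltbp1 and Ltbp2. By peaks this was 6 of 346 (1.73%). A member in Ltbp1 had 16.5 CPM in Lgr5 Epcam-, 0.734 and 0.518 in Lgr5 Epcam+, 1.05 in K14 Epcam+, 1.24 in HF and 1.45 in IFE, while the start of the gene had 36.1 CPM in Lgr5 Epcam-, 28.3 and 33.7 in Lgr5 Epcam+, 21.0 in K14 Epcam+, 5.31 in HF and 4.81 in IFE. Ltbp1, like Vim, thus combined a start open in all 4 tumour libraries with an internal site open by the rule in Lgr5 Epcam- only. Among 10 Tead and Hippo target genes 2 had members, 4 of 191 peaks (2.09%): Ccn1 (35.8 CPM in Lgr5 Epcam-, 3.70 and 3.24 in Lgr5 Epcam+, 6.87 in K14 Epcam+, 2.16 in HF and 1.45 in IFE) and Ankrd1, whose 3 members had 10.1 to 19.96 CPM in Lgr5 Epcam- and 0.797 to 4.18 CPM elsewhere.

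Of 12 EMT transcription factor genes with 229 eligible peaks, 0 had a member. With members at 4.197% of all genes and 0.752% of all peaks, 0 in a list of this size is no result about these genes. Their peaks summed to 1603 CPM in Lgr5 Epcam-, 1053 and 1258 in Lgr5 Epcam+, 1012 in K14 Epcam+, 778 in HF and 588 in IFE. The largest differences were 1.76 at Zeb2, 1.68 at Prrx1, 1.63 at Zeb1, 1.56 at Snai1, 1.43 at Twist2, 1.24 at Twist1 and 0.63 at Snai2, all under the limit of 2. The peaks of Zeb1 summed to 144 CPM in Lgr5 Epcam-, 62.8 and 98.1 in Lgr5 Epcam+, 68.7 in K14 Epcam+, 61.0 in HF and 34.5 in IFE. The sums of Zeb2, Prrx1, Twist1 and Snai1 were also highest in Lgr5 Epcam-, but those of Twist2 and Snai2 were not. Twist2 had 83.7 CPM in Lgr5 Epcam-, 84.9 and 69.7 in Lgr5 Epcam+, 58.7 in K14 Epcam+, 26.6 in HF and 18.9 in IFE. Snai2 had 53.1 CPM in Lgr5 Epcam-, 53.3 and 49.0 in Lgr5 Epcam+, 34.1 in K14 Epcam+, 52.4 in HF and 53.3 in IFE. Likewise 0 of 12 AP-1 genes, 0 of 12 contractile cytoskeleton genes, 0 of 11 Ets genes, 0 of 27 Hox genes and 0 of 10 housekeeping genes had a member, as did 0 of 26 genes of epithelial adhesion and identity and 0 of 14 of epidermal differentiation. Of the Runx genes 1 of 4 did (Runx1), of the nuclear factor I genes 1 of 4 (Nfix), of matrix proteases and the urokinase system 2 of 11 (Adam12 and Timp2), and of matrix integrins 1 of 14 (Itgb5, 2 members). By peaks, the Runx genes (0.658%), nuclear factor I genes (0.488%), integrins (0.649%), forkhead factors (0.455%) and chemokines and cytokines (0.485%) lay under the 0.752% of all eligible peaks. The follicle stem cell genes (0.772%) lay beside it, so their share of genes is no excess by peaks. Basal keratinocyte genes (1.12%), Wnt genes (1.23%) and matrix proteases (1.30%) lay above it. The remaining lists had 2 of 18 Wnt genes (Dkk2 and Tcf7l1), 2 of 11 follicle stem cell genes (Tcf7l1 and Lrig1), 1 of 11 forkhead factors of mesenchyme (Foxp1), 1 of 15 chemokines and cytokines (Lif) and 1 of 11 basal keratinocyte genes (Dst).

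**Figure D5:**
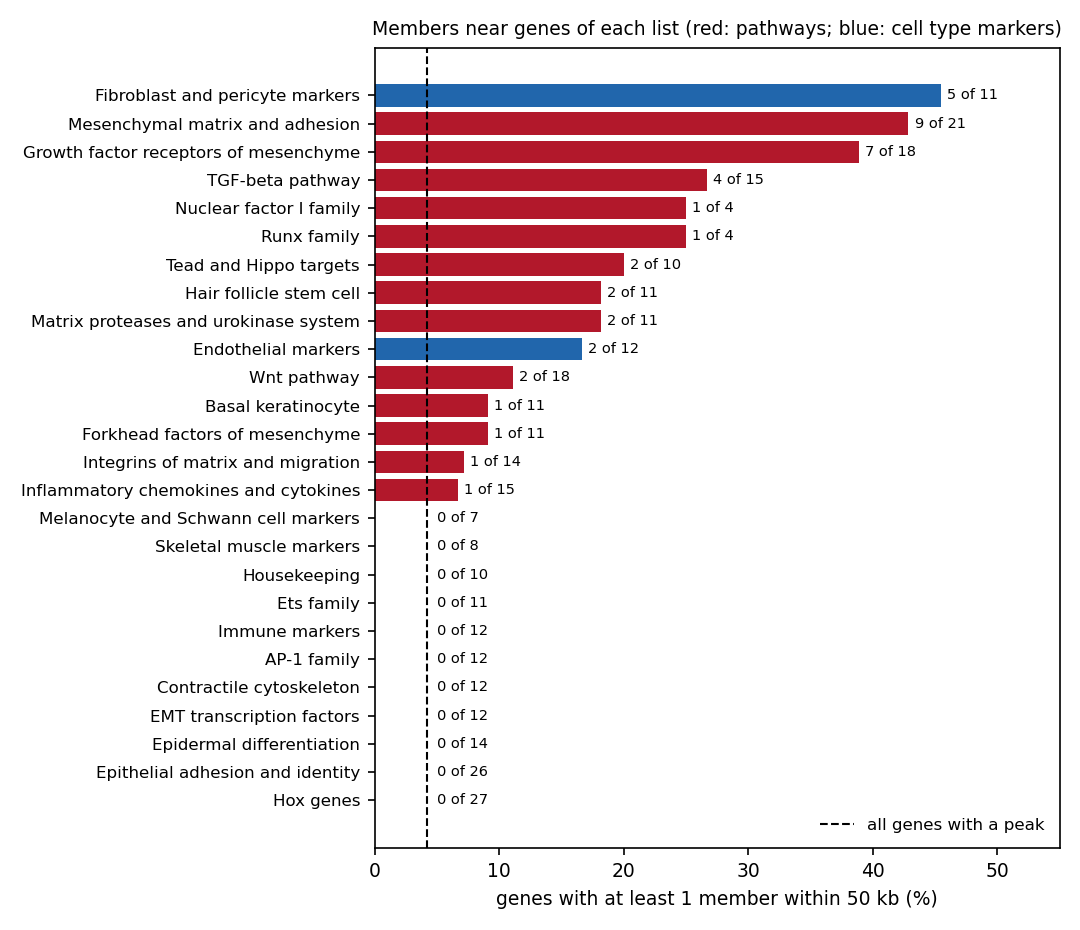
Share of the genes of each list that had at least 1 member within 50 kb (%), with the count beside each bar; red bars are pathways, blue bars are markers of cell types, and the dashed line is the 4.197% of all genes with an eligible peak. Fibroblast and pericyte markers (5 of 11) and mesenchymal matrix and adhesion genes (9 of 21) stand highest, and 11 lists have none.

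Markers of other cell types that the sort could hold moved in part with the members. Of 11 fibroblast and pericyte markers, 5 (45.5%) had a member: Pdgfrb, the pericyte gene Rgs5, and the matrix genes Dcn, Col6a3 and Dpt. The peaks of that list summed to 565 CPM in Lgr5 Epcam-, against 253 and 305 in Lgr5 Epcam+, 285 in K14 Epcam+, 268 in HF and 248 in IFE. Pdgfra, which encodes the CD140a of the sort, had no member, and its 12 peaks summed to 105 CPM in Lgr5 Epcam-, 62.1 and 63.4 in Lgr5 Epcam+, 65.8 in K14 Epcam+, 53.7 in HF and 50.2 in IFE. Of 12 endothelial markers, 2 had a member (Tek and Emcn), and of 12 immune, 7 melanocyte and Schwann cell and 8 skeletal muscle markers, 0 did. The endothelial list summed to 690 CPM in Lgr5 Epcam-, 735 and 670 in Lgr5 Epcam+, 815 in K14 Epcam+, 588 in HF and 589 in IFE. Pecam1, which encodes the CD31 of the sort, had no member. Its 20 peaks summed to 78.7 CPM in Lgr5 Epcam-, 151 and 159 in Lgr5 Epcam+, 154 in K14 Epcam+, 103 in HF and 141 in IFE. The immune list summed to 215 CPM in Lgr5 Epcam-, 223 and 255 in Lgr5 Epcam+, 267 in K14 Epcam+, 139 in HF and 206 in IFE, and Ptprc, which encodes CD45, to 57.0 CPM in Lgr5 Epcam-, 74.6 and 97.5 in Lgr5 Epcam+, 84.6 in K14 Epcam+, 34.8 in HF and 27.4 in IFE. No summed marker list was at 0 in any library, and 12 of 15 immune and 11 of 13 fibroblast and pericyte markers had an eligible peak. Matrix genes are shared by fibroblasts and by carcinoma cells after EMT, so the 5 fibroblast and 9 mesenchymal genes cannot be assigned to either, and the part of stromal cells in the members was not tested. The sort marker followed the labels: the 13 peaks of Epcam summed to 40.6 CPM in Lgr5 Epcam-, 178 and 180 in Lgr5 Epcam+, 191 in K14 Epcam+, 82.0 in HF and 70.3 in IFE.

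The levels of the members in Epcam+ tumours and normal epithelia were set side by side with an edgeR quasi-likelihood fit over 177238 peaks on the summed runs. Lgr5 Epcam- was in the fit as a class of its own, but the contrast compares only the other 5 libraries. The rule had capped the highest paired-end level of these same 5 libraries, and those counts are part of the summed runs, so the values for members are a description, not a test, and no p-values are given. All 1235 members entered the fit, each with at least 10 summed counts in each of the 5 libraries. Past the threshold over all peaks, 27 members (2.19%) were higher in the Epcam+ tumours (3 libraries) than in HF and IFE, where 15.1% of all peaks were, and 4 (0.324%) were lower, where 15.1% were. Nothing is read from these shares, since the cap limits the differences a member can have. The members' median log2 difference was 0.03, against 0.007 for all peaks.

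Vim stood among the 27 members. On the summed runs its member at the gene end had 5.24 and 4.02 CPM in Lgr5 Epcam+ and 4.95 in K14 Epcam+, against 1.84 in HF and 1.23 in IFE, a log2 difference of 1.84 ± 0.41 (SE), and 36.0 CPM in Lgr5 Epcam-. Members near Gm7361 (1.76), in or near Arhgap22 (1.73), Zfp469 (1.72), Ttc28 (1.71), Jcad, a protein of cell junctions (1.65), and Opn5 (1.57) were also among them, with the log2 difference in parentheses. The largest difference was at a peak of chromosome 5 with no coding gene within 50 kb, with 3.797 and 4.05 CPM in Lgr5 Epcam+ and 11.5 in K14 Epcam+, against 2.56 in HF and 1.09 in IFE (1.999 ± 0.55, SE). The members of Col5a1 at 49707 and 42857 bases from the gene were called as well (1.55 and 1.45), as was the Ccn1 member (1.49), whose level was 4.72 and 3.83 CPM in Lgr5 Epcam+ and 8.40 in K14 Epcam+, against 2.80 in HF and 1.79 in IFE. These last 3 were singled out after their values were seen. A peak of chromosome 12 went the other way, with 1.11 and 1.05 CPM in Lgr5 Epcam+ and 1.20 in K14 Epcam+, against 2.03 in HF and 5.90 in IFE (-1.65 ± 0.49, SE). It lay between 2 members that were called higher (1.22 and 1.19), all within 83.1 kb. On chromosomes 15 to 19, where the single-end run of K14 Epcam+ was low, 5 members were called higher and 2 lower, so 22 and 2 of these calls lie on chromosomes 1 to 14. The number called moved with each library: it was 2 higher and 0 lower without IFE, 7 and 0 without Lgr5 Epcam+ 1, 11 and 1 without K14 Epcam+, 11 and 1 without HF, and 19 and 9 without Lgr5 Epcam+ 2.

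The epithelial groups were also set side by side in pairs, again on values that the rule had capped. HF and K14 Epcam+ have 1 library each, so the spread in these fits comes from the Lgr5 Epcam+ pair alone (1 residual degree of freedom). The lone libraries are assumed to vary like that pair, so only log2 differences are read from the fits. Counts past the threshold stand beside the share of all peaks, and nothing is read from them. A count of 0 by size shows no likeness. In Lgr5 Epcam+ against HF, edgeR's quasi-likelihood fit put 0 members higher (background 8.88% of all peaks) and 0 lower (background 7.41%). The members' median log2 difference was -0.15, against 0.01 over all peaks. In Lgr5 Epcam+ against K14 Epcam+, edgeR put 0 members in either direction, but 1 peak in all was higher (0.000564%) and 14 lower (0.0079%). The median was -0.12, against 0.03 over all peaks. HF and IFE were compared by size only: 0 members reached a log2 ratio of 2 on the summed runs with 1 in each run, where 1.55% of all peaks did so towards HF and 0.53% towards IFE. By the same rule of size, 0 members were higher in Lgr5 Epcam+ 1 than in Lgr5 Epcam+ 2 (0.434% of all peaks) and 2 were lower (0.962%). At 73.5% of members HF was above IFE, with a median log2 ratio of 0.23, against 49.97% of all peaks. Relative to background HF was not above IFE, with the median paired-end ratios of 1.34 in HF and 1.37 in IFE given above and an expected background of 1.06 CPM in HF and 0.779 CPM in IFE.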

How the data were processed

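ATAC-seq libraries were made with the Nextera kit from sorted mouse cells, per the labels' protocols. The authors deposited raw counts of reads over 177240 shared peaks on mm10, and the submitters' processing notes name Bowtie2, HOMER, bedtools and HTSeq, with versions not given in the sources used here. Single-end and paired-end runs with the same label were taken as 1 library, with 15896612 to 32703016 counts in peaks per run. The row of counts outside peaks stayed out of totals. CPM used the total over all peaks and a pseudocount of 0.5. Exact binomial intervals cover counting error only, since ATAC-seq reads without molecular identifiers are not independent molecules.

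Each peak was given to the nearest protein-coding gene within 50 kb (RefSeq, GRCm38.p6), and start sites and sequences came from RefSeq windows of 250 bases before to 50 after a start. No genome was used here, so motifs were searched in those windows and not in the peaks as first planned.

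Runs were summed per library and tested with edgeR 4.0.16 (quasi-likelihood, TMM scaling, filterByExpr with a minimum of 10 counts, Benjamini-Hochberg threshold 0.05) over all peaks; DESeq2 1.42.0 was an alternative. The fit for the contrast of Epcam+ tumours with normal epithelia held all 6 libraries, with Lgr5 Epcam- as a class of its own. It left 3 residual degrees of freedom, and the fit for the other contrasts left 1. In the first fit K14 Epcam+ and both Lgr5 Epcam+ stood as replicates of 1 class, and HF and IFE of another. Its spread, and each SE given, therefore includes differences between tumour models and between tissues. In the other fits the spread is that of the Lgr5 Epcam+ pair. P-values of the fits rest on the spread among these libraries only, and that spread may in part be technical. The code was tested on simulated data. Total-count scaling moved the median of all peaks to -0.19 in the contrast of Epcam+ tumours with normal epithelia, where calls over all peaks split into 21984 higher and 32776 lower, against 26737 and 26724 with TMM.

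The members, gene lists and tests were chosen with earlier results of these data known. Genes were named by number of members (up to 15), size of the difference (15), nearness to the limit (4 on each side), list (up to 5 each) and size of a called contrast (up to 8). For the mesenchymal matrix and growth factor lists, all genes with a member were named instead. The genes of the printed sequences, Mir199b, peaks far from genes and those said so in the text were picked after their values were seen. Some alleles and genes are not reported here.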

Additional observations from a re-analysis of the deposited data

How the results depend on the processing

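Of 75 alternative values over 11 results, 38 stayed and 37 moved, and the causes were not tested. Counts stayed if within 1.5 times the reported value. Shares without a gene were held to a narrower limit and were counted as moved. A reported 0 stayed if the alternative was 0. Many that stayed are such zeros, among them all of Lgr5 Epcam+ against K14 Epcam+. There 1 peak in all was called higher and 14 lower, so 0 members could hardly move, and the tally does not measure robustness. The number of members, 1235, became 579 by the single-end run, 2089 with a pseudocount of 0.1 and 691 with 1, 10097 at a limit of 1 and 44 at a limit of 3, 467 with CPM over counts in and outside peaks, and 1276 to 1883 when 1 of the other libraries was left out (1883 without HF). TMM scaling gave 1167, of which 1097 were members, and summed runs 896, of which 817 were. The share without a gene was 39.2% at 10 kb and 19.6% at 100 kb, and mesenchymal genes with a member were 4 at 10 kb. Members past the threshold as higher in Epcam+ tumours than in normal epithelia, 27, were 14 with total-count scaling, 17 single-end, 49 by DESeq2 and 2 to 19 with 1 library left out (11 without K14 Epcam+ and 11 without HF). Those lower, 4, were 12 with total-count scaling, 11 single-end and 0 to 9 with 1 library left out. Against HF, Lgr5 Epcam+ had 1 higher with DESeq2 size factors, 2 paired-end, 3 single-end and 6 by DESeq2, and 8 lower with total-count scaling, 2 paired-end and 1 single-end. HF against IFE had 31 higher and 4 lower at a limit of 1, 1 higher with total-count scaling, 4 higher and 2 lower paired-end and 1 higher single-end. Leaving out a library of Lgr5 Epcam+ left no residual degrees of freedom in the contrasts with HF and K14 Epcam+, which have no such value. No paired analysis was possible because only Lgr5 Epcam+ has more than 1 sample. Counts near 1 CPM in the other libraries limit how far below the limit of 2 they can be placed.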
